A study of Mus musculus with 5 samples.

Results

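Markers of the head mesenchyme were followed in RNA of pituitaries from 5 mouse embryos at stage e12.5. The mesenchyme is the loose connective tissue of neural crest and mesodermal origin that surrounds the gland. The members are 9 transcription factors and 1 receptor gene, taken by symbol from the all-gene table, with the longest region kept for each symbol: Twist1, Prrx1, Prrx2, Alx4, Foxc1, Foxc2, Msx1, Tbx15, Tbx18 and Pdgfra. Values were read for 9 of the 10, out of 20097 symbols in all, and Msx1 was not analysed here. All 9 passed the filter of a mean level of at least 1.

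The control group was 3 embryos of genotype Itgb1 f/f (libraries 9, 10 and 12), and the knockout group was 2 littermates of genotype Itgb1 f/f; Pitx1-cre (libraries 13 and 16), all of strain B6;129. Both groups carry the floxed alleles of Itgb1, which encodes integrin beta 1, the shared subunit of many receptors for extracellular matrix. The Cre transgene is named for Pitx1, a gene of the oral ectoderm and pituitary, and cells that never make Cre keep Itgb1. The labels call the material epithelial pituitary cells from separate biological replicates, and they do not say whether mesenchyme was removed or carried the deletion.

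Head mesenchyme forms from migrating neural crest cells and from cranial mesoderm, and it gives rise to bone, cartilage, connective tissue, meninges and the mural cells of vessels. Twist1 encodes a basic helix-loop-helix factor required for cranial mesenchyme. Prrx1, Prrx2 and Alx4 encode paired-type homeodomain factors of craniofacial mesenchyme, and Msx1 encodes another homeodomain factor. Foxc1 and Foxc2 encode forkhead factors of periocular, meningeal and vascular mesenchyme. Tbx15 and Tbx18 encode related T-box factors, and Pdgfra encodes a receptor tyrosine kinase for platelet-derived growth factors that marks mesenchyme widely.

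Levels are given as deposited, scaled by the authors to 10000000 tags in each library. Between 4480809 and 6143263 reads fell on listed genes per library. These sums include the ribosomal precursor Rn45s. It held 22.2%, 16.8% and 23.5% of all tags in controls 9, 10 and 12, against 14.2% in knockout 13 and 8.88% in knockout 16. The sums therefore do not rank the libraries by depth on the other genes. Library 16 stood apart from the others. Olfactory and vomeronasal receptor genes carried 0.156 to 0.395 tags per kilobase for controls 9, 10 and 12, against 0.472 for knockout 13 and 1.497 for knockout 16. The Spearman rho between a gene's level and the length of its region, taken across genes, which are not independent replicates, was 0.935 for library 16 and from 0.644 to 0.732 for the other 4 libraries. The median tested gene stood above the control mean by 0.80 on the log2 scale in library 13 and by 1.28 in library 16. The deposited Itgb1 level of controls 9, 10 and 12 was 272.73, 426.36 and 430.91, that of library 13, labelled a knockout, 446.36 and that of library 16 186.36, so its deposited level does not separate library 13 from the controls. On the adjusted scale defined next, Itgb1 lay below every control in both, at 281.3 and 115.8 against a lowest control of 374.5. Every direction below that involves library 13 carries that limit.

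For these reasons 2 kinds of level are given. The deposited level is the authors' value. The adjusted level has the background per kilobase of the receptor genes subtracted and is then scaled with TMM factors, which set libraries to one another by the bulk of their genes. A relative log2 change is the knockout minus control difference of log2(value + 1), less the same difference of the median gene. The fitted median gene stood at 0.97 on deposited values and at -0.09 on the adjusted scale. The p-values of limma refer to the plain log2 change, with no median subtracted.

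In the limma fit on deposited values 0 of 9 members and 0 of 19313 genes passed an adjusted p under 0.05 (0.0% of genes higher and 0.0% lower). At an unadjusted p under 0.05 there were 3 members and 5636 genes. The 9 members had a median relative log2 change of -0.23, with 4 above and 5 below the median gene, which is at 0 by construction. Single members ran from -1.12 for Foxc2 to 1.04 for Prrx2. On the adjusted scale the median was 0.05, with 5 above and 4 below, and 0 of 9 members and 0 of 14528 genes passed (0.0%), with 1 member and 280 genes at an unadjusted p under 0.05. The sign of the group's median thus turned between the scales.

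**Figure D1:**
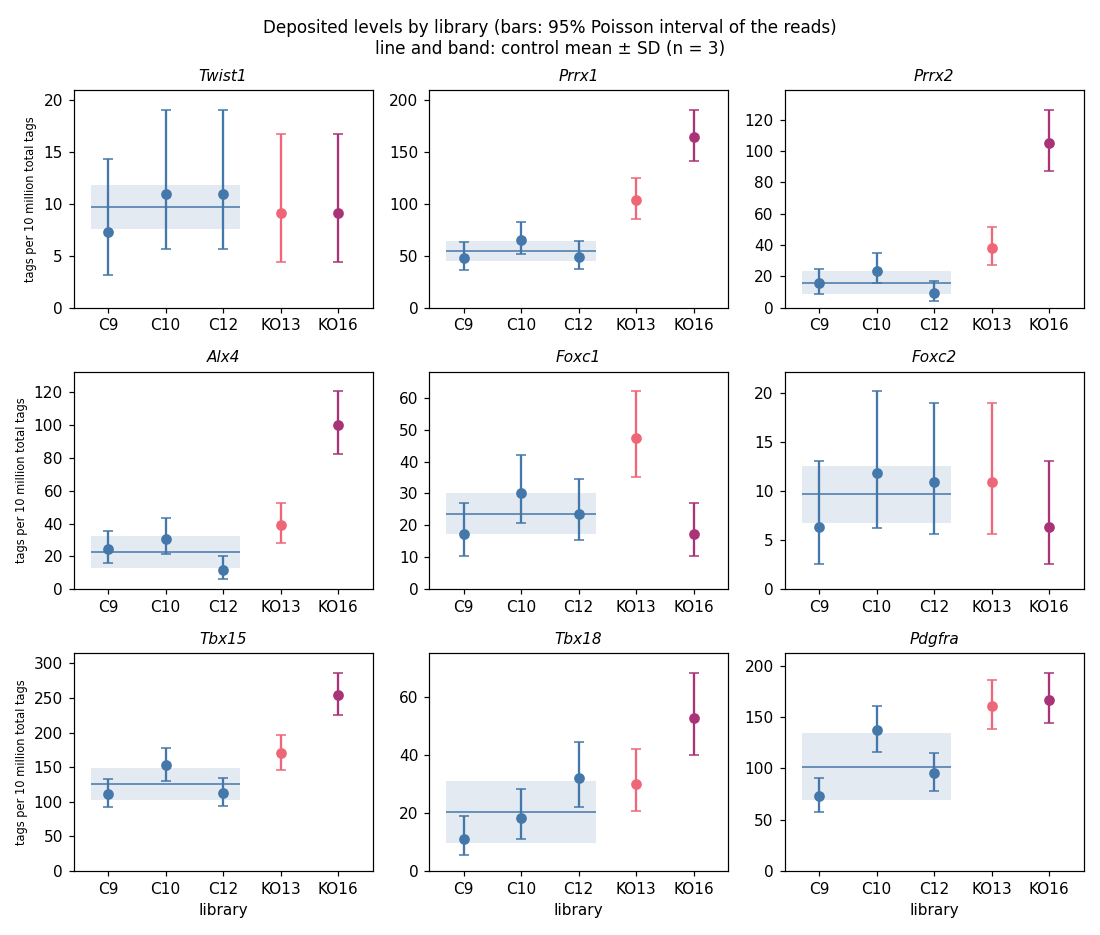
Deposited level of each of the 9 genes in tags per 10000000 total tags (vertical axis from 0) in controls C9, C10 and C12 and knockouts KO13 and KO16; vertical bars are 95% Poisson intervals of the reads, and the line and band are the control mean ± SD (n = 3). Prrx1, Prrx2, Alx4, Tbx15 and Pdgfra lie above every control in both knockout libraries, and Twist1 and Foxc2 lie within the controls.

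Both knockout libraries held more deposited tags than every control for 5 of the 9 members, Prrx1, Prrx2, Alx4, Tbx15 and Pdgfra. The same was true of 50.2% of all tested genes, so this share is near the background. No member lay below every control in both libraries, where 0.202% of genes did. On the adjusted scale 1 member, Prrx2, lay above every control in both libraries, where 7.12% of genes did. There 2 members, Twist1 and Foxc2, lay below every control in both, where 8.36% of genes did. With TMM factors alone Tbx15 joined those 2 (6.8% of genes), and Prrx2 was again the member above (8.5%).

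The regions that were counted span introns as well as exons, and the members differ greatly in length. Foxc1 (mm9 chromosome 13, 31899315 to 31902504), Foxc2 (chromosome 8, 123640871 to 123642794) and Twist1 (chromosome 12, 34643336 to 34644696) have regions of 3190, 1924 and 1361 bp. In the GENCODE M21 models 100% of the Foxc1 and Foxc2 spans and 75.4% of the Twist1 span are exonic. The other 6 regions run from 27661 bp in Tbx18 (chromosome 9, 87598035 to 87625695) to 99701 bp in Tbx15 (chromosome 3, 99058483 to 99158183), with 3.13% to 19.1% of the span exonic. Those of Pdgfra (chromosome 5, 75549116 to 75594229), Prrx1 (chromosome 1, 165175650 to 165243381), Prrx2 (chromosome 2, 30701687 to 30736767) and Alx4 (chromosome 2, 93483391 to 93521496) lie between. In these models 6 of the 9 measured genes overlap another annotated gene, among them Alx4 with Ext2 on the other strand. The table lists every region on the plus strand, so overlapping tags cannot be told apart.

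Per kilobase of region, the 3 short genes had the highest control levels. Foxc1 was at 7.41 ± 2.00 tags per kilobase (SD, n = 3), Twist1 at 7.12 ± 1.54 and Foxc2 at 5.04 ± 1.52. Foxc2 was the lowest of these 3 in every control, at 3.31, 6.14 and 5.67 in controls 9, 10 and 12. Foxc1 and Twist1 changed order between controls. Pdgfra followed at 2.26 ± 0.726 and Tbx15 at 1.26 ± 0.237. Prrx1 at 0.801 ± 0.143, Tbx18 at 0.734 ± 0.384, Alx4 at 0.589 ± 0.255 and Prrx2 at 0.458 ± 0.208 came last, and neighbours among these 4 lay within each other's spread. The last 4 stand close to the receptor-gene background of 0.156 to 0.395 tags per kilobase in the same libraries.

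The share of each level that the background estimate accounts for was therefore large in the long genes. In library 16 it was 78.5% for Tbx18, 61.6% for Prrx1, 58.6% for Tbx15, 57.0% for Alx4, 49.8% for Prrx2 and 40.4% for Pdgfra. Among the short genes there it was 45.3% for Foxc2, above that of Pdgfra, 27.6% for Foxc1 and 22.4% for Twist1. In the controls the short genes stood between 1.95% and 7.79%, and Prrx2 between 58.5% and 60.2%. Tbx18 was at 65.3% and 60.1% in controls 9 and 10 but at 13.6% in control 12.

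**Figure D2:**
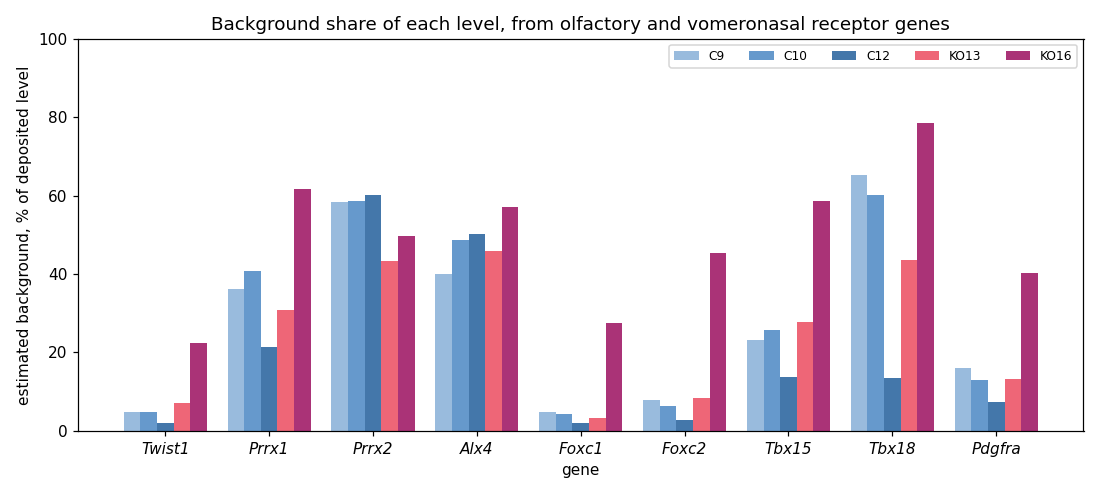
Share of the deposited level, in percent, that equals the receptor-gene background times region length, for each of the 9 genes (horizontal axis) in the 5 libraries (C9, C10, C12, KO13, KO16). In library KO16 the share runs from 22.4% in Twist1 to 78.5% in Tbx18, and Twist1, Foxc1 and Foxc2 stay at or under 8.32% in the other 4 libraries.

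Sequence upstream of the start site was at hand in the RefSeq table (GRCm38.p6) for 7 of the 10 members. The 250 bases before the start are shown for 4 genes that behaved differently, Twist1 (lower on the adjusted scale), the paralogs Prrx1 and Prrx2 (Prrx2 higher) and Pdgfra (close to the controls). Capitals mark motif matches on either strand. In Twist1 they mark the letters TATAAA and the Sp1-type element GGGCGG, printed as its reverse complement CCGCCC, which also stands in Prrx2. The TATAAA is marked by its letters alone, and its distance from the start was not used to call it a core promoter element. In Prrx1 the capitals mark the homeodomain core TAATTA, and in Pdgfra the E-box CATCTG.
Twist1 (GRCm38.p6, chr12:33957421-33957670, plus strand): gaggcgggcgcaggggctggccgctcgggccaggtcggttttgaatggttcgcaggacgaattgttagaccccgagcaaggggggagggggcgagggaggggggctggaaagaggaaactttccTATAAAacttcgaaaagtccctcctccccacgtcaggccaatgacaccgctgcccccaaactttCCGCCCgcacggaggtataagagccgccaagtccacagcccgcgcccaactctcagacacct
Prrx1 (GRCm38.p6, chr1:163313651-163313900, minus strand): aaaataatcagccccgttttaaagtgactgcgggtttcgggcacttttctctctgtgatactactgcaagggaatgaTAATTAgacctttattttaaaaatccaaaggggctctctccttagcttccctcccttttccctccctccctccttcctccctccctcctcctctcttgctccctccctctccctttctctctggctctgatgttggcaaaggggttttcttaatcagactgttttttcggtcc
Prrx2 (GRCm38.p6, chr2:30845117-30845366, plus strand): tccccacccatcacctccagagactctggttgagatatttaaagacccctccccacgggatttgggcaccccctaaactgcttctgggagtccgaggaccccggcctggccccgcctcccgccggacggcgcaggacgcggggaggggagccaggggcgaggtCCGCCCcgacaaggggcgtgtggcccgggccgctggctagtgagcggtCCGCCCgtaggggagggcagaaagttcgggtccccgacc
Pdgfra (GRCm38.p6, chr5:75152001-75152250, plus strand): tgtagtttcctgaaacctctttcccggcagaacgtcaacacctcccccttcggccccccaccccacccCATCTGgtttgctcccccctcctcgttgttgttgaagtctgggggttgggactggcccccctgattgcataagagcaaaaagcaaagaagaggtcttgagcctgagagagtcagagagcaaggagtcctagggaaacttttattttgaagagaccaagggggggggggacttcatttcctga
The 4 windows differ in composition: 62.4% of bases are G or C in Twist1 with 18 CpG, 47.6% with 4 in Prrx1, 70.0% with 21 in Prrx2 and 54.4% with 4 in Pdgfra. Over all 32536 promoter windows the medians are 52.4% and 6. Foxc1 is at 70.8% with 29 CpG. TAATTA occurred in 1 of the 7 members' windows and 4.84% of all windows, GGGCGG in 4 of 7 and 33.0%, TATAAA in 1 of 7 and 12.3%, and CATCTG in 2 of 7, Pdgfra and Tbx18, and 14.4%. Any E-box (CANNTG, which includes CATCTG) was in 3 of 7 and 66.2%. The E-box CATATG, the forkhead core GTAAACA and the T-box motif GGTGTGA were in 0 of 7 windows, against 3.42%, 3.17% and 3.33% of all. A match describes the letters in this window and says nothing of binding.

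Prrx2 stood furthest above the median gene. Its deposited level was 15.45 in control 9, 23.64 in control 10 and 9.09 in control 12, then 38.18 in library 13 and 105.45 in library 16. Both knockout libraries lay above all controls. The 95% Poisson intervals, which cover counting error only, were 27.5 to 51.6 for library 13 and 87.1 to 126.5 for library 16. The interval of library 13 overlapped that of control 10 (15.4 to 34.6), and that of library 16 overlapped no other. Adjusted, it was at 9.93, 8.99 and 3.84 for controls 9, 10 and 12, against 14.3 for knockout 13 and 52.9 for knockout 16, again with no overlap. That is 1.89 and 6.97 times the control mean of 7.59 ± 3.28 (SD, n = 3). The fitted log2 change of Prrx2 was 2.01 (SE 0.65, limma adjusted p = 0.0707) on deposited values and 1.83 (SE 0.73, adjusted p = 0.819) on adjusted ones. A 2-sided exact permutation test, with 10 possible splits, gave p = 0.1 on both scales, the smallest it can give. Without library 13, which leaves library 16 alone and assumes that it varies like the controls, Prrx2 passed in the edgeR quasi-likelihood test (adjusted p = 0.00219) and in limma on adjusted values (adjusted p = 0.0399). Those fits also called 20.9% and 5.71% of all genes higher. They called 23.6% and 18.9% of all genes lower, among them 1 member (Foxc1) in edgeR and 0 members in limma. Without library 16 its relative change in limma was 0.49 and it did not pass.

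Its paralog Prrx1 differed less from the median gene. The deposited level was 48.18, 65.45 and 49.09 for controls 9, 10 and 12, against 103.64 for knockout 13 and 164.55 for knockout 16, above every control in both. The relative log2 change was 0.30 (limma adjusted p = 0.129). The adjusted levels were 47.6, 35.6 and 40.9 for controls 9, 10 and 12, against 47.5 for knockout 13 and 63.1 for knockout 16. Library 13 was then within the controls and library 16 above them, at 1.53 times the control mean. The adjusted relative change of Prrx1 was 0.50 (limma adjusted p = 0.819).

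Alx4, the third paired-type factor, was the member that the authors' deposited table of changed genes lists. That table holds 1024 of the 20097 symbols (5.1%), and 1 of the 9 members. In the authors' deposited table Alx4 has a log2 fold change of -0.68, a fold change of 0.6, a second fold change of 0.448, a p-value of 0.000774 and values of 16 for WT and 10 for KO, in a unit that the table does not name. The all-gene values ran the other way: 24.55, 30.91 and 11.82 for controls 9, 10 and 12, against 39.09 for knockout 13 and 100 for knockout 16, both above every control. Adjusted levels were 22.8, 14.6 and 6.24 for controls 9, 10 and 12, against 14.0 for knockout 13 and 42.9 for knockout 16. Library 13 was then inside the controls at 0.963 times their mean of 14.5 ± 8.28 (SD, n = 3), and library 16 was at 2.95 times it. Neither scale placed a knockout library below every control, so the all-gene values did not give the lower value of the authors' deposited table. The authors' Alx4 region there starts at 93482591, and the region used here starts at 93483391. Both end at 93521496, so the regions nearly coincide. With the unit of the authors' values unnamed, the 2 sets of values cannot be taken as the same measure. The cause of the difference was not tested. The relative log2 change of Alx4 was 0.57 (limma adjusted p = 0.102) and 0.98 on adjusted values (limma adjusted p = 0.819). It was 0.07 in the fit of deposited values without library 16. In edgeR's quasi-likelihood fit that leaves out library 13 it was called higher (adjusted p = 0.0367, with 20.9% of genes called higher).

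Twist1 and Foxc2 formed a second pattern, lower against the bulk of genes. Twist1 was at 7.27, 10.91 and 10.91 for controls 9, 10 and 12, against 9.09 for knockout 13 and 9.09 for knockout 16, within the controls in both. These levels are 8 to 12 reads per library, and the 95% Poisson interval of the level from 10 reads runs from 4.36 to 16.7, wider than all differences between libraries. Adjusted, Twist1 was at 10.7, 9.53 and 11.4 for controls 9, 10 and 12, against 5.60 for knockout 13 and 7.05 for knockout 16, below every control in both. These are 0.532 and 0.669 times the control mean of 10.5 ± 0.930 (SD, n = 3). The relative log2 change of Twist1 was -1.03 (limma adjusted p = 0.954) and -0.57 adjusted (limma adjusted p = 0.819), and the exact permutation p on adjusted values was 0.1.

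Foxc2 was at 6.36, 11.82 and 10.91 for controls 9, 10 and 12, against 10.91 for knockout 13 and 6.36 for knockout 16, also within the controls and on 7 to 13 reads. Adjusted, it was at 9.08, 10.2 and 11.3 for controls 9, 10 and 12, against 6.63 for knockout 13 and 3.48 for knockout 16, below every control in both. The adjusted values are 0.652 and 0.342 times the control mean. Its relative log2 change was -1.12 on deposited values (limma adjusted p = 0.886) and -0.84 on adjusted ones (limma adjusted p = 0.819), with an exact permutation p of 0.1 on the adjusted values.

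Foxc1, the paralog of Foxc2, split the 2 knockout libraries. It was at 17.27, 30 and 23.64 for controls 9, 10 and 12, against 47.27 for knockout 13 and 17.27 for knockout 16, so library 13 lay above every control and library 16 equalled the lowest. Adjusted levels were 25.5, 26.4 and 24.6 for controls 9, 10 and 12, against 30.3 for knockout 13 and 12.49 for knockout 16. On the adjusted scale library 13 was above all controls at 1.19 times their mean, and library 16 was below all of them at 0.490 times. The SD of the adjusted controls was 0.910 (n = 3), on 19, 33 and 26 reads, and it does not cover counting error. On deposited levels the 95% Poisson interval of library 13 (35.3 to 62.0) overlapped that of control 10 (20.7 to 42.1). The interval of library 16 (10.4 to 27.0) overlapped those of all controls. The relative log2 change of Foxc1 was -0.67 (limma adjusted p = 0.728), and it turned to 0.20 without library 16. Foxc1 was called lower by edgeR's quasi-likelihood fit that leaves out library 13 (adjusted p = 0.00774), as were 23.6% of all genes. Markers of the pituitary epithelium split in the same way: they had a median of 0.51 (library 13) and -1.63 (library 16) on deposited values, and 0.50 and -0.68 on adjusted ones. Their part in the Foxc1 values was not tested.

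**Figure D3:**
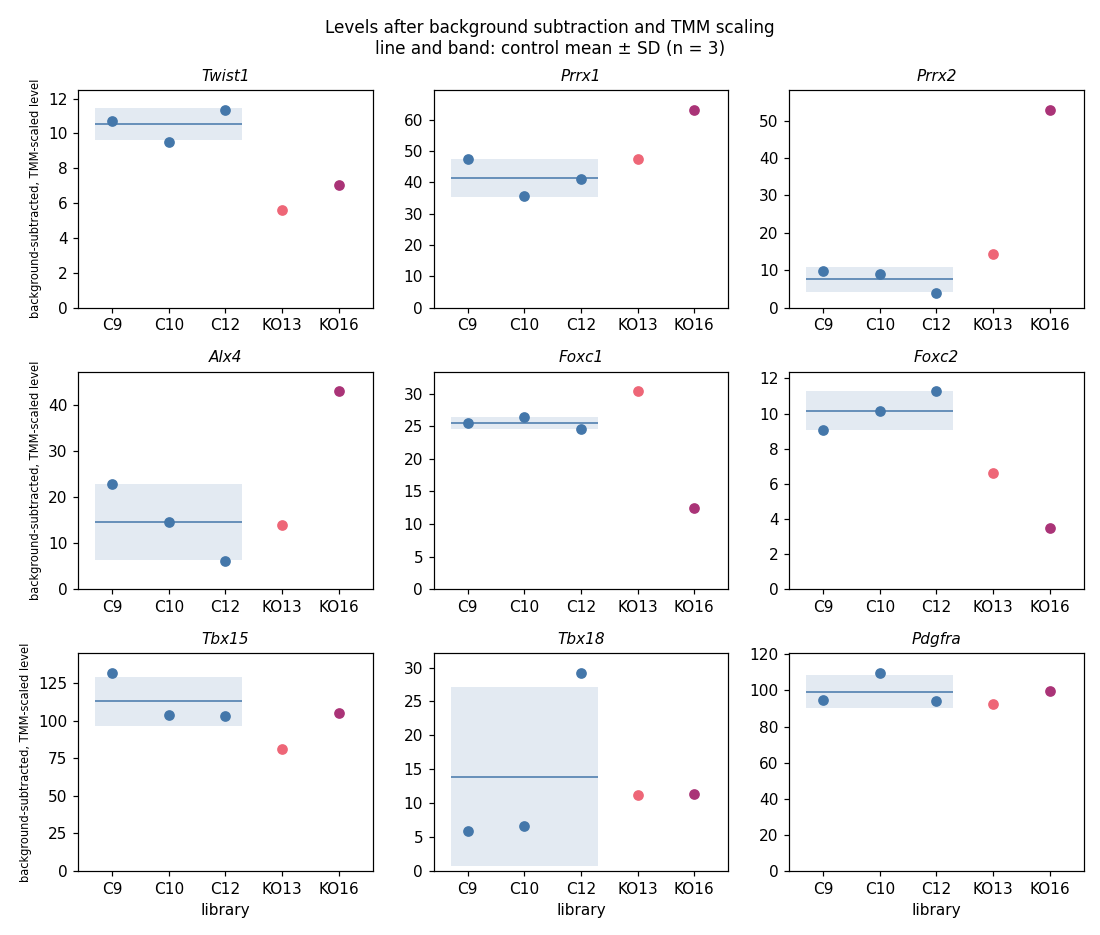
Level of each of the 9 genes after background subtraction and TMM scaling (vertical axis from 0, in rescaled tags per 10000000) in controls C9, C10 and C12 and knockouts KO13 and KO16, with the control mean ± SD (n = 3) as line and band. Twist1 and Foxc2 lie below every control in both knockout libraries, Prrx2 lies above, and Pdgfra runs from 92.6 to 109.7 over all 5 libraries.

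Pdgfra, the receptor gene, kept close to the controls once libraries were adjusted. Its deposited level was 72.73, 137.27 and 95.45 for controls 9, 10 and 12, against 160.91 for knockout 13 and 167.27 for knockout 16, above every control in both. Adjusted, it was at 94.6, 109.7 and 93.9 for controls 9, 10 and 12, against 92.6 for knockout 13 and 99.7 for knockout 16. The knockouts stood at 0.932 and 1.003 times the control mean of 99.4 ± 8.94 (SD, n = 3), library 16 inside the control range and library 13 just under it. The fitted log2 change on adjusted values was -0.04 (SE 0.34, limma adjusted p = 0.973), and its relative change was 0.05, against -0.24 on deposited values (limma adjusted p = 0.334). Its small relative change turned sign with the setting.

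Among the T-box genes, Tbx15 had the highest deposited level of all members, on the longest region. It was at 110.91, 152.73 and 112.73 for controls 9, 10 and 12, against 170 for knockout 13 and 254.55 for knockout 16, above every control in both. Adjusted, it was at 131.9, 104.1 and 103.2 for controls 9, 10 and 12, against 81.5 for knockout 13 and 105.3 for knockout 16. Library 13 was then below every control at 0.721 times their mean, and library 16 was within them. The relative log2 change of Tbx15 was -0.23 (limma adjusted p = 0.323) and -0.18 adjusted (limma adjusted p = 0.837).

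Tbx18 varied most within the control group. It was at 10.91, 18.18 and 31.82 in controls 9, 10 and 12, 30 in library 13 and 52.73 in library 16. The coefficient of variation of the controls was 52.3%, against 17.9% for Prrx1, and the interval of control 12 (22.2 to 44.3) did not overlap that of control 9 (5.64 to 19.1). After adjustment control 12 was at 29.2, against 5.86 and 6.67 in the other controls, and both knockouts lay in between at 11.2 and 11.3. The relative log2 change of Tbx18 was 0.09 (limma adjusted p = 0.248). It was -0.13 without control 9, -0.12 without control 10 and 0.53 without control 12. It was -0.14 without knockout library 16, so leaving out single libraries of either group turned its sign.

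The members did not shift as 1 block, and in library 16 short and long genes stood apart. There the 3 short genes had relative log2 ratios to the control mean of -1.78 to -1.34 on deposited values, while the 6 long ones ran from -0.52 to 1.46. All 3320 tested genes with regions under 5 kb had a median of -0.34 there (middle 50% from -1.47 to 0.60), and the 5819 genes of 25 to 100 kb had one of -0.01 (-0.79 to 1.03). In library 13 the short members ran from -0.87 to 0.20, where the short genes as a whole had a median of -0.05. The long members ran from -0.35 to 0.49 there, and genes of 25 to 100 kb had a median of 0.009 (-0.17 to 0.18). On the adjusted scale library 16 had -1.14 to -0.34 for the short members, where the 1320 short genes had a median of -0.77 (middle 50% from -1.28 to -0.12). The long members had 0.08 to 2.91 there. The 5383 adjusted genes of 25 to 100 kb had a median of 0.206 in library 16 (middle 50% from -0.696 to 1.655). The part of length in the members' values was not tested beyond these classes.

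**Figure D4:**
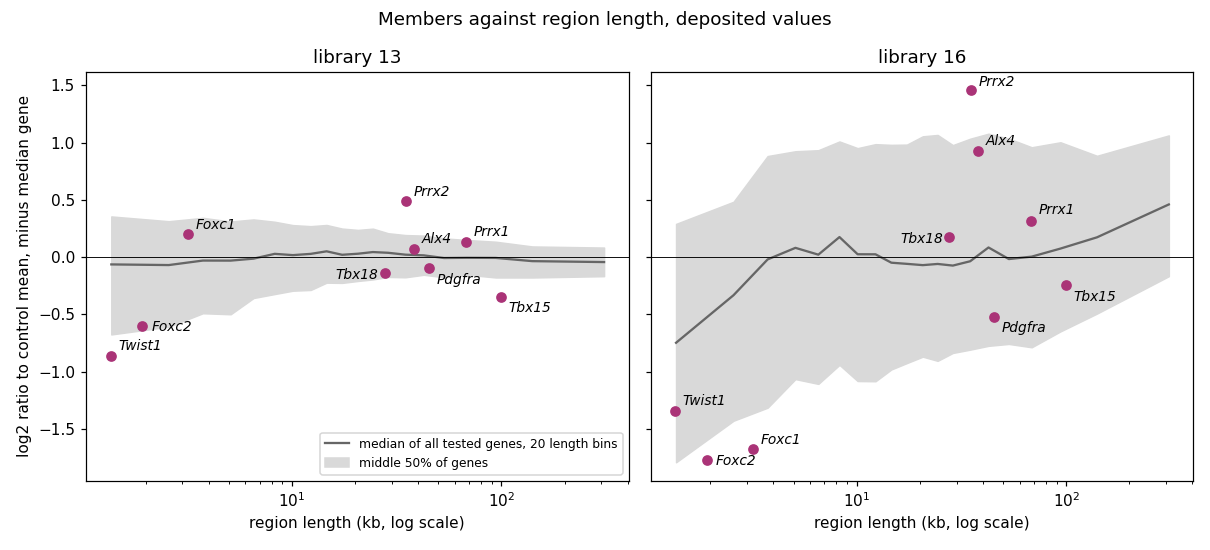
Log2 ratio of each member to the control mean, less the median gene, against region length in kilobases (log axis) in libraries 13 and 16, on deposited values; the grey line and band are the median and middle 50% of all tested genes in 20 length bins. In library 16 Twist1, Foxc1 and Foxc2 lie between -1.78 and -1.34 and Prrx2 at 1.46.

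Likeness was measured as the Euclidean distance between profiles over the 5 libraries, on log2(value + 1), with the median gene of each library taken off and each profile centred. Among members the closest pairs were Pdgfra and Tbx15 (distance 0.50), Twist1 and Foxc2 (0.54) and Prrx2 and Alx4 (0.57). The mean profile of the members was closest to Tbx15 (0.25) and Pdgfra (0.30) and farthest from Prrx2 (1.69). Outside the members the 5 closest of 10994 genes were Ccdc14 (0.07), Ltbp3 (0.07), Dip2b (0.07), Nkain1 (0.08) and Bbs4 (0.08). Ltbp3, which encodes a latent TGF-beta binding protein of the matrix, was at 21.82, 33.64 and 26.36 for controls 9, 10 and 12, against 45.45 for knockout 13 and 54.55 for knockout 16. Those 5 are the smallest of 10994 distances, so lying nearer to the averaged profile than any member is no trait of the members.

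Relatives of the members gave a similar picture, none passing the limma test. Twist2 was at 51.82, 54.55 and 47.27 for controls 9, 10 and 12, against 77.27 for knockout 13 and 134.55 for knockout 16, with a relative log2 change of 0.01 (limma adjusted p = 0.227). Alx1 was at 3.64, 9.09 and 6.36, then 10.91 and 28.18, with a relative change of 0.44. Msx2 was at 0, 4.55 and 1.82, then 4.55 and 13.64. Adjusted, Alx1 was at most 3.42 in any library. Msx1as, an RNA antisense to Msx1 chosen after its values were seen, was at 54.55, 81.82 and 68.18 for controls 9, 10 and 12, against 96.36 for knockout 13 and 28.18 for knockout 16. Adjusted, it was below every control in both, at 62.9 and 23.2 against a lowest control of 71.9 (limma adjusted p = 0.819). The authors' deposited table lists Msx1as with a log2 fold change of -0.25 and a p-value of 2.29e-10. That entry spans 38211803 to 38213990 on chromosome 5, and the region used here spans 38212130 to 38215424. The 2 regions overlap only in part, so they are not the same measurement. Its region carries no strand of its own in the table, so these tags do not give a value for Msx1.

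The ligands and partner of the PDGF receptor showed no call in 4 measured genes (0 higher and 0 lower, with a median relative log2 change of -0.20). Pdgfc, a ligand, was at 130, 238.18 and 221.82 for controls 9, 10 and 12, against 386.36 for knockout 13 and 296.36 for knockout 16, with a relative change of -0.14. After adjustment it was at 130.7, 154.6 and 206.3, then 200.9 and 31.7, and library 16 lay below every control. Pdgfrb, the partner receptor and a mural cell marker, had a relative change of -0.40, and adjusted levels of 77.3, 88.5 and 113.2 for controls 9, 10 and 12, against 83.0 for knockout 13 and 69.6 for knockout 16. Pdgfa and Pdgfb had relative changes of 0.21 and -0.27.

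The wider list of mesenchymal transcription factors (37 measured of 40) had 0 genes passing in each direction in limma, 21 above and 16 below the median gene, and a median of 0.02. On adjusted values 15 of the 22 tested lay above and 7 below, with a median of 0.36. The 22 passed a filter on the mean level over all libraries, knockouts included. Genes high in a knockout library could therefore enter, and genes low there could drop out. The adjusted counts and medians of every list carry that limit, so this tilt is not read as a result. The highest members of the wider list by level, Foxp1 and Tshz2, had relative log2 changes of -0.21 and -0.10. Split by knockout, the median was -0.26 (library 13) and 0.46 (library 16) on deposited values, and -0.20 and 0.94 on adjusted ones. Fibrous matrix genes made by mesenchyme went with the lower side: 17 of 21 lay below the median gene and 0 passed, with a median of -0.63 on deposited and -0.65 on adjusted values. The matrix median was nearer 0 in library 13 (-0.26 deposited, -0.40 adjusted) than in library 16 (-1.21 and -1.08). Fbn2 (fibrillin 2) and Col3a1 (a fibrillar collagen chain) had relative changes of -0.92 and -1.27. Col3a1 was at 277.27, 553.64 and 432.73 for controls 9, 10 and 12, against 596.36 for knockout 13 and 181.82 for knockout 16. The matrix list thus stood lower than the members' own median in the same fit, a difference that was not tested.

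Markers of other tissues were read in the same libraries, as medians of relative log2 change on deposited values, and 0 genes of any of these lists passed in limma. In bulk tissue, fewer cells of a type and less RNA per cell cannot be told apart. The 11 pituitary epithelium markers, led by Epcam and Pitx1 (-0.68 and -0.56), were above 0 in every library and had a median of -0.47, which was -0.043 on adjusted values (5 above and 6 below). Library 13 was at 0.51 and library 16 at -1.63 on deposited values. The 7 infundibulum and hypothalamus genes lay below the median gene without exception (median -1.82), with Fgf10 at -2.08 and Sox1 at -0.65. Their summed level was 514.5 to 837.3 for controls 9, 10 and 12, against 472.7 for knockout 13 and 380.9 for knockout 16. All 8 skeletal muscle genes lay above it (median 0.57), with Ttn at 0.56 and Pax7 at 0.59, and their sum was 150.9 to 329.1, 446.4 and 910.9, in the same order. Defining muscle factors were near 0: Myf5 had 0, 0 and 0.91 for controls 9, 10 and 12, against 4.55 for knockout 13 and 1.82 for knockout 16. Oral ectoderm genes had a median of 0.81, with Trp63 at 0.89 and Krt5 at 0.84, and Foxe1 was at 0 in all 5 libraries. Endothelial genes had a median of -0.01 (Flt1 0.50, Erg 0.69), mural genes -0.27 (Notch3 -0.49, Pdgfrb -0.40) and blood and macrophage genes 0.24 (Hba-x -0.53, Ptprc 0.60). Cartilage and bone genes had a median of 0.54 (Col11a1 -0.31, Col2a1 -0.95) and Schwann and crest genes 0.26 (Ednrb -0.39, Erbb3 -0.19), with Foxd3 at 0 in 3 libraries. Prrx2 and Alx4 were highest in library 16. So were the median gene and the deposited sums of the muscle, oral ectoderm, endothelial, mural, blood and cartilage lists. The deposited sums of the pituitary epithelium, infundibulum and Schwann lists were not highest there. On adjusted values the muscle, oral ectoderm, endothelial and blood sums were again highest in library 16. The adjusted cartilage sum was lowest there, at 260.2 against 389.4 in library 13 and 407.3 to 527.9 in the controls. The adjusted mural sum of library 16, 308.6, lay within the controls (296.5 to 346.6). The part of these tissues in the members' values was not tested.

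**Figure D5:**
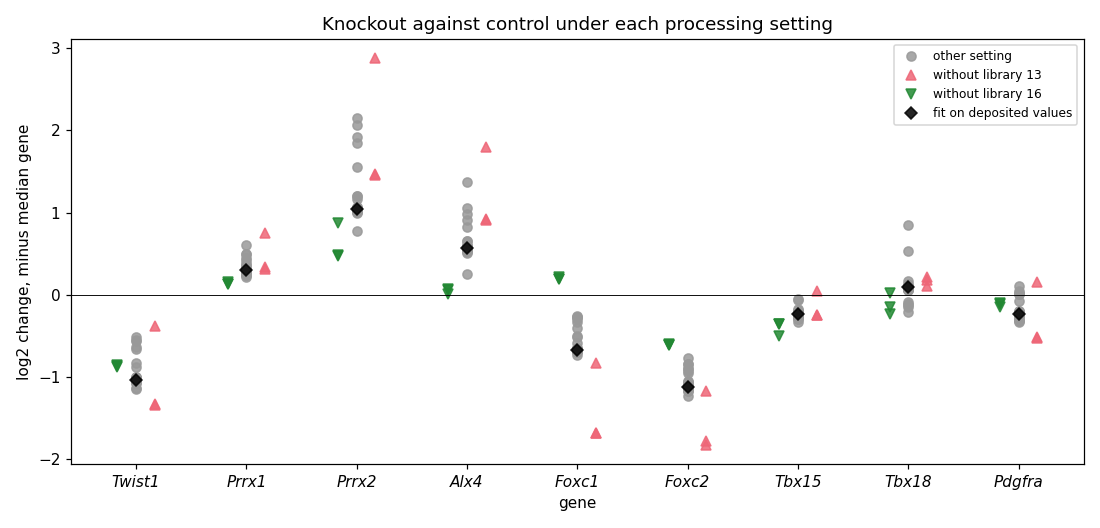
Relative log2 change of each of the 9 genes (knockout against control, less the median gene) under each of 25 processing settings; diamonds are the fit on deposited values, triangles the fits without library 13 or library 16, and circles the other settings. Prrx2 stays between 0.47 and 2.88 and Foxc2 between -1.82 and -0.59, while Tbx18, Pdgfra, Foxc1 and Tbx15 have settings on both sides of 0.

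Across the 25 settings 5 of the members kept their side of the median gene. The settings are refits of the same 5 libraries or of subsets of them. The share of all genes that kept their side is not given, so the count is not read as a trait of the members. Prrx2 ran from 0.47 to 2.88, Prrx1 from 0.13 to 0.75 and Alx4 from 0.01 to 1.80 above it. Twist1 ran from -1.34 to -0.37 and Foxc2 from -1.82 to -0.59 below it. In the limma fit on deposited values with all 5 libraries the adjusted p of single members ran from 0.0707 for Prrx2 to 0.954 for Twist1. The labels describe separate biological replicates, and the spread between the 2 knockout libraries limits every comparison.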

How the data were processed

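RNA was rRNA-depleted total RNA from 3 control and 2 knockout embryos, made into strand-specific libraries, per the labels' protocols. The signal values are the authors' deposited tags per gene region, scaled to 10000000 total tags in each library. Bowtie2, HOMER, edgeR and mm9 are named, with no roles, in the submitters' processing notes. The authors' deposited table of changed genes gives log2 fold changes, linear fold ratios and p-values, and WT and KO score values of unnamed unit. Each all-gene value was a whole multiple of 1 read for 100.0% of values (tolerance 0.01 reads), so reads were recovered.

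The main test was limma 3.58.1 (R 4.3.3) with trend on log2(value + 1), for genes of mean at least 1, with Benjamini-Hochberg adjustment over all of them. A fold change on this scale understates the change of low genes. Background was estimated from 406 olfactory and vomeronasal receptor genes. The limma fit on adjusted values kept genes of mean at least 5 over its libraries. Recovered reads were tested with edgeR 4.0.16 and DESeq2 1.42.0. All p-values are 2-sided. Fits were tested on simulated data. Genes named outside the members were, by rule, the 2 of highest mean in each list, the listed relatives and the 5 most alike profiles. Pdgfa, Pdgfb, Foxe1, Foxd3, Myf5, Msx1as and Rn45s are outside that rule and were chosen after their values were seen. A listed relative is not reported here. The members and lists were chosen with earlier results of these data known. Promoters and gene models are GRCm38, and the regions mm9, so no coordinate was moved between builds.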

Additional observations from a re-analysis of the deposited data

How the results depend on the processing

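No litter is given for single libraries, and the replicate numbers do not match across the groups, so no paired analysis was made. DESeq2 called 25 genes, all lower, and gave the 9 members no adjusted p, while edgeR's quasi-likelihood test on all libraries called 0 genes (457 at an unadjusted p under 0.05). Fits on adjusted values or with edgeR and 1 library left out were chosen after seeing the data. Without library 13 they called 3624 genes and 1 member (Prrx2) on adjusted values, and 7945 genes and 3 members (Prrx2, Foxc1, Alx4) with edgeR. Without library 16 they called 3 genes each, and 0 members. With 1 knockout library left, that library is assumed to vary like the controls.

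The members' median relative log2 change was -0.057 with a pseudocount of 5 and -0.33 in DESeq2. It turned to 0.00456 with background subtracted and to 0.048 with TMM factors added. Leaving out 1 library gave -0.25 (library 13) to -0.10 (library 16) at the extremes on deposited values, -0.14 (control 10) to 0.15 (library 13) on adjusted values, including -0.061 without control 9, 0.011 without control 12 and 0.020 without library 16, and -0.11 with edgeR without library 16. Pdgfra turned to 0.00456 and 0.048 in the same 2 settings, and on adjusted values to 0.021, 0.11, 0.011 and 0.15 without libraries 9, 10, 12 and 13. Tbx18 turned to -0.092 in DESeq2, to between -0.14 and 0.53 with 1 library left out, to -0.21 and -0.14 on adjusted values without controls 9 and 10, and to -0.24 with edgeR without library 16. Foxc1 ran from -1.68 without library 13 to 0.20 without library 16, which was also its value on adjusted values, with 0.22 in edgeR. Tbx15 turned to 0.049 on adjusted values without library 13. The cause of these turns was not tested. Twist1 and Foxc2 had 7 to 13 reads in each library, and the part of depth in their missing calls was not tested.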
